A study of Mus musculus and Rattus norvegicus with 24 samples.

Results

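The 14-3-3 proteins are a family of small dimeric adaptors, and their transcripts were followed here in single cardiomyocytes. The members were all listed genes whose symbol begins with Ywha. These were 6 of the 9595 genes in the count table: Ywhab, Ywhae, Ywhag, Ywhah, Ywhaq and Ywhaz. They encode the beta, epsilon, gamma, eta, theta and zeta forms. Sfn, the sigma form, was not among the listed genes. The members were chosen by symbol, but the family was selected on its counts per group and per cell in these same libraries, so its levels and ratios are a description.

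Each member of the family binds proteins that carry a phosphorylated serine or threonine in a fitting motif, and it holds them in place, masks a signal or keeps partners together. Known partners include Raf kinases, the death factor Bad, class IIa histone deacetylases and, in heart muscle, phospholamban, the inhibitor of the calcium pump. The forms can pair with one another, and the epsilon form mostly pairs with other forms. Loss of Ywhae is known in the mouse to disturb growth of the ventricular wall.

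The study holds 24 single cells in 3 groups of 8. Adult cells are wild type ventricular cardiomyocytes of adult Rattus norvegicus. Transplanted cells are cardiomyocytes made from mouse embryonic stem cells that carry the reporters Isl1-Cre, Rosa-RFP and aMHC-GFP, injected into a neonatal rat heart and recovered after 30 days in vivo. Cultured cells come from the same stem cell genotype and spent 30 days in vitro. The stem cells are given as 1 genotype, so both stem cell groups share the reporters, and the adult cells do not carry them. The labels name no animal and no culture for any cell, so each group counted as 1 sample: there was no test between groups, and cells were not used as replicates.

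Total counts ran from 108546 to 223744 per adult cell, from 88796 to 344224 per transplanted cell and from 16099 to 60789 per cultured cell. Levels are given as CPM, the counts of a gene scaled to a total of 1000000 over the listed genes, and a group's level is that of its 8 cells summed. Brackets hold exact 95% intervals, which cover the counting error of reads only. PCR copies are not independent molecules, so the intervals are too narrow for molecules and do not cover spread between cells. A group without any count was given 3 counts in all for its ratios, which are then bounds. This limit was 2.36 CPM in adult, 2.30 CPM in transplanted and 14.6 CPM in cultured cells. The submitters' processing notes name only the mouse build mm10, for the rat cells too, so species and group cannot be told apart in any value of the adult cells.

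The cardiac label was checked with 10 marker genes, among them Myl2, Tnnt2, Actc1, Myh6 and Ttn. These took 17.1 to 21.5% of counts in adult cells, 16.1 to 22.9% in transplanted cells and 0.00837 to 16.5% in cultured cells. Ttn, which encodes the sarcomere spring titin, made up 9301 of the 10734 marker counts of the cultured cells. Myl2 and Tnni3 had counts in 1 cultured cell each, and cultured F had no count of Ttn, Myh6, Myl2 or Tnnt2. Myl7 was at 0 in adult and transplanted cells. In culture it had 331 counts over 7 cells, among them 78 in F, 20 in G and 1 in H. Cultured F held 137 marker counts, mostly of Myl7 and of Tpm1, which had 58. Cultured cells G and H held 20 and 2 marker counts, so their identity rests largely on the label. That of F rests on Myl7, Tpm1 and the label. Fibroblast markers, described below, had 35 counts in F, 0 in G and 50 in H, so in H they outnumber the cardiac markers. The RNase P RNA Rpph1, which hardly appeared in the other groups, took 4.96%, 2.51%, 5.48% and 5.30% of counts in cultured cells B, C, D and E and at most 0.0574% in cultured cells A, F, G and H. The ribosomal RNA precursor Rn45s took a median of 1.23% in adult, 1.20% in transplanted and 7.02% in cultured cells. Cultured cells thus stood apart in depth and in library make-up.

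The members are similar in sequence, so their coding sequences were compared first to see whether reads could be mixed up. In the mouse annotation, GENCODE M21 on the mm10 build, Ywhab lies on chromosome 2 (163994960 to 164018588, plus strand), Ywhae on chromosome 11 (75732869 to 75765845, plus strand) and Ywhag on chromosome 5 (135908409 to 135934616, minus strand). Ywhah lies on chromosome 5 (33018816 to 33027966, plus strand), Ywhaq on chromosome 12 (21390071 to 21417637, minus strand) and Ywhaz on chromosome 15 (36770770 to 36796929, minus strand). They encode proteins of 245 to 255 residues, of which that of Ywhae is the longest. The 60 coding bases most alike over all 6 members together begin at coding base 34 to 40 and are shown here. Single pairs of members can share longer identical runs elsewhere. Capitals mark positions where the members are not all the same, and 38 of the 60 positions are shared by all.
Ywhab: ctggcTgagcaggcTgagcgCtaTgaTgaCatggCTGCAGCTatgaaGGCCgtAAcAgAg
Ywhae: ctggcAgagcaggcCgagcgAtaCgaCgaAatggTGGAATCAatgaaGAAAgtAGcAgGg
Ywhag: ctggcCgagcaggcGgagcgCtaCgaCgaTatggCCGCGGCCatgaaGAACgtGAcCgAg
Ywhah: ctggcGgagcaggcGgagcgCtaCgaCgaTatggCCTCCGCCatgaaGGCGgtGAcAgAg
Ywhaq: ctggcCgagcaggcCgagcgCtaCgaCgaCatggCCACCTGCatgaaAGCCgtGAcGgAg
Ywhaz: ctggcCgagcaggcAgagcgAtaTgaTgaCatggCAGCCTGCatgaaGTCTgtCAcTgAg
The stretch lies at chr2:164011644-164011703 on the plus strand in Ywhab, at chr12:21416999-21417058 on the minus strand in Ywhaq and at chr15:36790885-36790944 on the minus strand in Ywhaz. An intron divides it in the other members. The stretch codes for part of the protein near its start.

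Over the whole coding sequence, the closest pair was Ywhag and Ywhah, with 583 of 738 aligned bases identical. Their longest identical run, 30 bases, was also the longest of any pair of members. Ywhab and Ywhaz shared 75.0%, with a longest run of 26 bases. Ywhae was the most distant member, at 61.3 to 63.4% identity with the others. Of all 50-base stretches in the main transcripts of Ywhab and Ywhae, 0 of 2964 and 0 of 2051 occurred in a transcript of any other annotated mouse gene. For Ywhag the share was 0.461%, and no 100-base stretch of it was shared. For Ywhaz it was 19.9%, almost all with Gm4202, for Ywhah 18.6%, all with Gm12428, and for Ywhaq 37.8%, among others with Gm2423 and the pseudogene Ywhaq-ps3. Reads of Ywhaq, Ywhaz and Ywhah may therefore be placed on either gene or be lost. By this search alone, their counts are less certain than those of Ywhab and Ywhae. The search covered exact matches in annotated mouse transcripts, so it cannot show near-identical copies or how reads of the rat cells were placed. The read length is not given in the sources used here.

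The 6 members together had 437 CPM (402 to 475) in adult cells, 551 CPM (512 to 593) in transplanted cells and 2052 CPM (1861 to 2257) in cultured cells. The ratio of the sums was 0.213 (0.187 to 0.242) for adult over cultured cells, which is 4.69-fold lower. It was 0.269 (0.238 to 0.304) for transplanted over cultured cells, which is 3.72-fold lower, and 0.793 (0.709 to 0.888) for adult over transplanted cells. Cell by cell, the sum ran from 0 to 1077 CPM (median 417) in adult cells, from 0 to 2237 CPM (median 363) in transplanted cells and from 712 to 8212 CPM (median 1146) in cultured cells. The groups overlap. Cultured D was the highest cell by far, and no 14-3-3 count at all was found in adult D, transplanted C and transplanted H. The limit of 3 counts is 19.5, 33.8 and 8.72 CPM in those cells. Without cultured D, the family was 2.49-fold lower in adult and 1.97-fold lower in transplanted cells than in cultured cells.

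Most of the difference between the sums lay in Ywhab. Without Ywhab, a split made after the values were seen, the other 5 members had 437 CPM in adult, 474 CPM in transplanted and 582 CPM in cultured cells. The ratio of their sums was 0.751 (0.616 to 0.923) for adult over cultured and 0.814 (0.668 to 0.998) for transplanted over cultured cells. Cultured B held 60 of the 120 cultured counts of these 5 members, and the ratios without it were not computed. TMM factors, another scaling of the totals, move ratios against cultured cells up by 0.92 on the log2 scale. That takes both ratios above 1, so their direction is not settled. A gene was measured in a comparison if its groups together held 10 counts. Of the members so measured, 2 of 5 were more than 2-fold lower in adult than in cultured cells (Ywhab and Ywhaq), against 62.1% of all 5132 genes measured. Of 5 members, 3 were more than 2-fold lower in transplanted than in cultured cells (Ywhab, Ywhaq and Ywhaz), against 64.0% of 4958 genes. No member was more than 2-fold higher in either comparison, against 23.0% and 22.5% of genes, on the plain totals. With TMM factors, 1 member was so in transplanted over cultured cells. Without cultured B the number was 1 (Ywhae) in both comparisons, and without cultured F it was also 1 (Ywhag). Both comparisons share the cultured cells. Between adult and transplanted cells, 1 of 4 measured members was more than 2-fold higher in adult cells (Ywhaz), against 44.3% of 3501 genes, and 2 were more than 2-fold lower (Ywhab and Ywhag), against 34.8%. The cells of 2 groups failed to overlap for no member in any comparison. Over all genes measured this held for 1.33% in adult over cultured, 1.43% in transplanted over cultured and 0.0% in adult over transplanted cells.

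**Figure D1:**
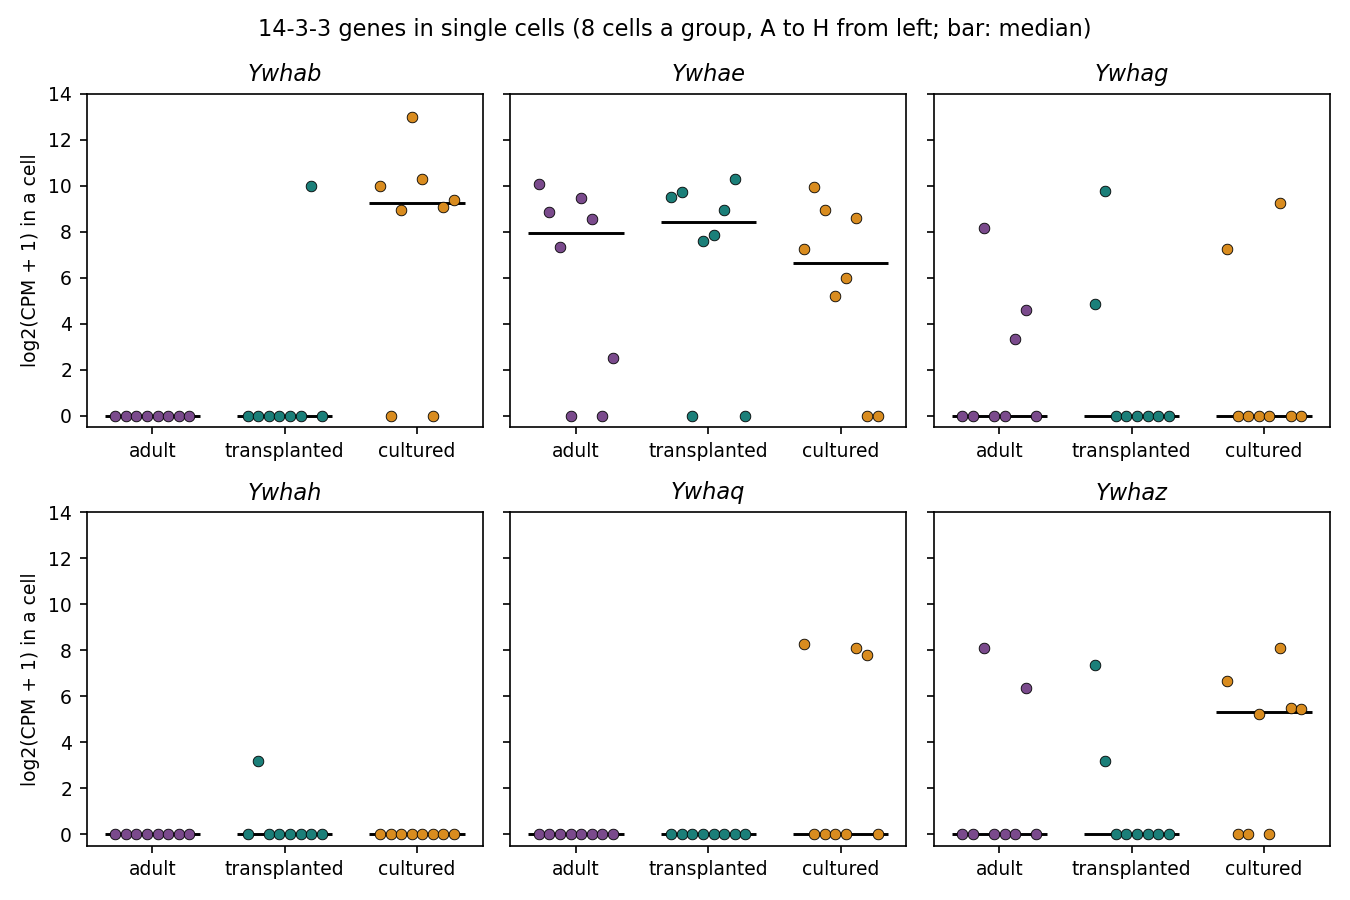
Level of each member in each cell, as log2(CPM + 1), for adult, transplanted and cultured cells, with 8 points a group (cells A to H from left) and a bar at the median. Ywhab has counts in 0 adult, 1 transplanted and 6 cultured cells, whereas Ywhae has counts in 6 of 8 cells of every group.

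Ywhab, the beta form, was found in more cultured than transplanted cells and in no adult cell. It had 0 counts in all 8 adult cells. Of the transplanted cells, only G had counts, 101 of them, or 1008 CPM. The 8 cultured cells, in order from A, gave 20, 0, 8, 227, 20, 0, 12 and 16 counts, so 6 of 8 cells held it, at 483 to 8141 CPM.

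The group levels of Ywhab were 0 CPM in adult, 77.5 CPM (63.1 to 94.2) in transplanted and 1470 CPM (1309 to 1645) in cultured cells. It was at least 623-fold lower in adult than in cultured cells, and at least 181-fold lower without cultured D. The ratio of transplanted over cultured cells was 0.0527 (0.0417 to 0.0663), or 19.0-fold lower. It was 5.50-fold lower without cultured D and at least 589-fold lower without transplanted G. Between adult and transplanted cells, the bound of at least 32.9-fold lower in adult rested on transplanted G alone. The single positive transplanted cell, at 1008 CPM, stood near cultured A at 1010 CPM and above the cultured median of 600 CPM. The ranges of the transplanted and cultured groups overlap.

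After thinning every cell to 16099 counts, the total of the shallowest cell, the number of cells expected to hold a Ywhab count stayed at 0 adult, 1 transplanted and 6 cultured cells. Thinning cannot add counts, so a group at 0 stays at 0, and the part of RNA capture was not tested. The cells that held it spanned both kinds of cultured library: Rpph1 took 2.51%, 5.48% and 5.30% of counts in cells C, D and E, and 0.0202%, 0.0574% and 0.0293% in cells A, G and H. Of fibroblast markers, 8 of 11 were listed, and they took 7.86e-05% of counts in adult, 7.68e-05% in transplanted and 0.0844% in cultured cells (0 to 0.209% per cultured cell). In cultured cells Fn1 had 98 counts, Pdgfra 41, Vim 19 and Col1a2 16, and Col3a1, Dcn, Lum and Postn were at 0. Markers of endothelium (5 of 10 listed) had 0, 1 and 1 counts in adult, transplanted and cultured cells, and macrophage markers (2 of 10 listed) had 0, 0 and 27. Smooth muscle markers (6 of 7 listed) took 0.0526%, 0.000921% and 0.0713% of counts. Of the cultured cells with Ywhab, A, C and H had 19, 18 and 50 fibroblast marker counts, and D, E and G had none. The part of other cell types in the Ywhab level was not tested. Across all listed genes, 128 had counts in at least 6 of 8 cultured cells, and 21.9% of these also had counts in at most 1 transplanted and no adult cell. Ywhab is 1 of these 28 genes. That comparison was chosen after its values were seen.

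Ywhae, the epsilon form, was the main 14-3-3 transcript of adult and transplanted cells. Adult cells gave 241, 54, 23, 0, 98, 40, 0 and 1 counts, in order from A. Transplanted cells, in the same order, had 102, 104, 0, 30, 45, 75, 123 and 0 counts. Cultured cells had 3, 60, 8, 1, 1, 7, 0 and 0 counts. Each group had 6 of 8 cells with a count, and the groups overlap over most of their range.

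The sums of Ywhae were nearly level, at 359 CPM (327 to 394) in adult, 368 CPM (335 to 402) in transplanted and 388 CPM (308 to 483) in cultured cells. The ratio was 0.93 (0.73 to 1.19) for adult over cultured, 0.95 (0.75 to 1.22) for transplanted over cultured and 0.98 (0.86 to 1.11) for adult over transplanted cells. Ratios within 1.5-fold of each other with counts on both sides were found for 5.69%, 5.16% and 13.6% of measured genes in these comparisons. Of 222 genes with counts in at least 6 of 8 adult and 6 of 8 transplanted cells, 8.56% also had counts in at least 6 cultured cells. These 19 genes are 0.198% of all listed genes, and Ywhae and Ybx1, which encodes an RNA-binding protein, were the 2 of them (10.5%) with all group levels within 1.5-fold. This set was defined after its values were seen.

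The sum of Ywhae in cultured cells came mainly from cell B, which held 75.0% of the counts. Without it, Ywhae was 2.61-fold higher in adult and 2.67-fold higher in transplanted than in cultured cells. Without adult A, which held 52.7% of the adult counts, it was 1.88-fold lower in adult than in cultured cells. With the scaling factors of the TMM method, which move every ratio against cultured cells up by 0.92 on the log2 scale, the ratios were 1.75 for adult and 1.79 for transplanted over cultured cells. The median over cells was 264 CPM in adult, 363 CPM in transplanted and 107 CPM in cultured cells.

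Ywhag, the gamma form, which is abundant in brain and skeletal muscle, was rarely detected and then came mostly from 1 cell. In adult cells, C, F and G had 41, 1 and 4 counts, for a group level of 36.2 CPM (26.5 to 48.3). In transplanted cells, A and B had 4 and 109 counts, for 86.7 CPM (71.5 to 104). In cultured cells, A and F had 3 and 11 counts, for 67.9 CPM (37.1 to 114). The other cells of each group had none, and the groups overlap.

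The ratio of Ywhag was 0.53 (0.29 to 1.05) for adult over cultured and 1.28 (0.73 to 2.41) for transplanted over cultured cells. It was 2.40-fold lower in adult than in transplanted cells (1.69 to 3.46). Single cells decided each of these: without transplanted B, Ywhag was 10.7-fold higher in adult than in transplanted cells and 20.0-fold lower in transplanted than in cultured cells. Without cultured F it was 2.26-fold higher in adult and 5.43-fold higher in transplanted than in cultured cells, and without adult C it was 15.3-fold lower in adult than in cultured cells.

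Ywhaz, the zeta form, is in common use as a reference gene in quantitative PCR. In adult cells, C and G had 39 and 14 counts, for 41.7 CPM (31.2 to 54.5). In transplanted cells, A and B had 23 and 1 counts, for 18.4 CPM (11.8 to 27.4). In cultured cells, A, D, F, G and H had 2, 1, 5, 1 and 1 counts, for 48.5 CPM (23.3 to 89.2). The other cells had none, and cells with and without a count stood in every group.

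The ratio of Ywhaz was 0.86 (0.43 to 1.89) for adult over cultured cells. It was 2.63-fold lower in transplanted than in cultured cells (1.12 to 5.71) and 2.26-fold higher in adult than in transplanted cells (1.37 to 3.83). These too rested on single cells. Without transplanted A it was 56.3-fold lower in transplanted than in cultured cells and 48.4-fold higher in adult than in transplanted cells. Without cultured F the first value was 1.45-fold lower. Without adult C it was 3.91-fold lower in adult than in cultured cells and 1.48-fold lower in adult than in transplanted cells. After thinning, 1.74 adult, 1.07 transplanted and 3.93 cultured cells would be expected to hold a Ywhaz count, against the 2, 2 and 5 that did.

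Ywhaq, the theta form, was detected in the cultured group, where cells A, F and G had 6, 5 and 5 counts, or 303, 271 and 221 CPM. It had no count in adult or transplanted cells. The level of 77.6 CPM (44.4 to 126) in cultured cells makes it at least 32.9-fold lower in adult and at least 33.7-fold lower in transplanted cells. The bounds were at least 22.7-fold and at least 23.3-fold without cultured A. Cells A, F and G are among the 4 cultured cells with little Rpph1, and whether library make-up has a part in this was not tested. Ywhah, the eta form, had 1 count in all 24 cells, in transplanted B, and no ratio is given.

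The make-up of the family differed between the group sums. Ywhae took 82.2% (78.8 to 85.3) of 14-3-3 counts in adult cells, 66.7% (63.1 to 70.2) in transplanted cells and 18.9% (15.3 to 23.0) in cultured cells. Ywhab took 0% (0 to 0.661) in adult, 14.1% (11.6 to 16.8) in transplanted and 71.6% (67.1 to 75.9) in cultured cells. The cultured shares rested on cultured D, with 227 of the 303 Ywhab counts: without it, Ywhab took 39.2% (32.3 to 46.4) and Ywhae 40.7% (33.7 to 48.0). Without cultured B, Ywhae took 5.51% (3.40 to 8.38), and without transplanted G, Ywhab took 0% of the transplanted counts. Ywhag and Ywhaz took 8.27% and 9.53% in adult cells, 15.7% and 3.34% in transplanted cells, and 3.31% and 2.36% in cultured cells. These too moved with single cells: without adult C they were 1.10% and 3.09%, without transplanted B Ywhag was 0.795%, and without cultured D they were 7.22% and 4.64%. Ywhae had the most counts of the family in 5 adult cells (A, B, E, F and H), 5 transplanted cells (A, D, E, F and G) and 1 cultured cell (B). Ywhab led in 5 cultured cells (A, D, E, G and H) and tied with Ywhae at 8 counts in cultured C. Ywhag led in adult C, transplanted B and cultured F, and Ywhaz led in adult G.

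**Figure D2:**
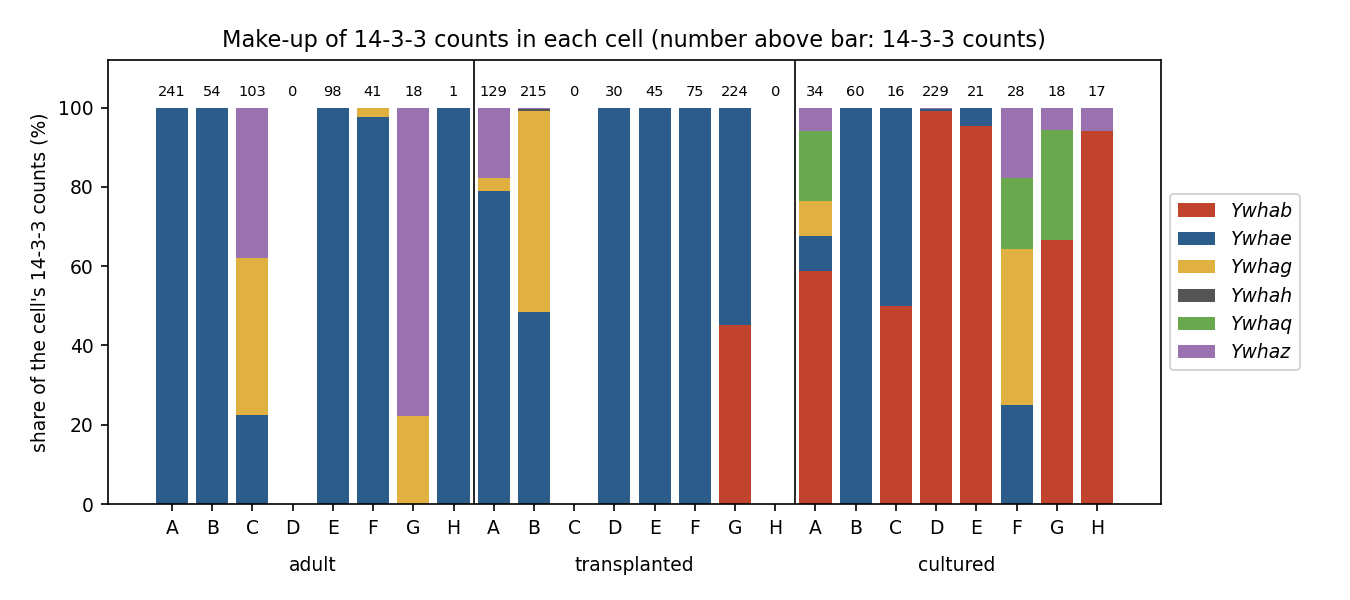
Share of each member in the 14-3-3 counts of each cell, in percent, for adult, transplanted and cultured cells, with the number of 14-3-3 counts above each bar and no bar where it is 0. Ywhae fills most bars of adult and transplanted cells, Ywhab most bars of cultured cells, and transplanted G is the single cell outside culture with Ywhab.

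Cells also differed in how many members they showed. The number detected per cell had a median of 1 in adult cells (0 to 3), 1 in transplanted cells (0 to 4) and 2.5 in cultured cells (1 to 5). At least 2 members were found in 3 adult, 3 transplanted and 7 cultured cells. After thinning to 16099 counts, the expected mean was 1.03 members per adult cell, 1.19 per transplanted cell and 2.56 per cultured cell. The number of genes of any kind detected per cell was 635 to 1701 in adult, 553 to 1427 in transplanted and 763 to 2630 in cultured cells. Ywhab and Ywhae were found together in 4 cultured cells and in transplanted G. Every adult or transplanted cell with Ywhaz also had Ywhag.

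To set members against each other, levels were divided by the length of their annotated exons, since a longer transcript yields more fragments when cDNA is cut by Tn5. All annotated exons of a gene were joined, which gives 5500 bases for Ywhag and 3382 for Ywhab. Their main transcripts have 3520 and 3013 bases. The order of members with close levels can depend on this choice, and levels per main transcript were not computed. Per kb of exon, Ywhae was the highest member in adult cells at 140 CPM per kb (127 to 153), followed by Ywhaz at 10.1 (7.58 to 13.2) and Ywhag at 6.58 (4.82 to 8.77), whose intervals overlap. Without adult A, Ywhae stood at 80.3 CPM per kb (69.9 to 91.7). Without adult C, Ywhaz stood at 3.02 and Ywhag at 0.806 CPM per kb. In transplanted cells Ywhae stood at 143 CPM per kb (131 to 157), Ywhab at 22.9 (18.7 to 27.9) and Ywhag at 15.8 (13.0 to 19.0), the last of which overlap narrowly, and Ywhaz at 4.47 (2.87 to 6.66). Ywhab had no count there without transplanted G, and Ywhag stood at 0.617 without transplanted B. In cultured cells Ywhab led with 435 CPM per kb (387 to 486), ahead of Ywhae at 151 (120 to 188). This order rested on cultured D: without it Ywhab stood at 126 CPM per kb (99.3 to 158) and Ywhae at 173 (137 to 215), with overlapping intervals. Without cultured B, Ywhae stood at 53.6 CPM per kb (32.7 to 82.7). Ywhaq at 25.4 (14.5 to 41.2), Ywhag at 12.3 (6.75 to 20.7) and Ywhaz at 11.8 (5.65 to 21.7) followed with overlapping intervals. With all cells kept, the intervals of Ywhae overlap between all 3 groups on this scale.

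**Figure D3:**
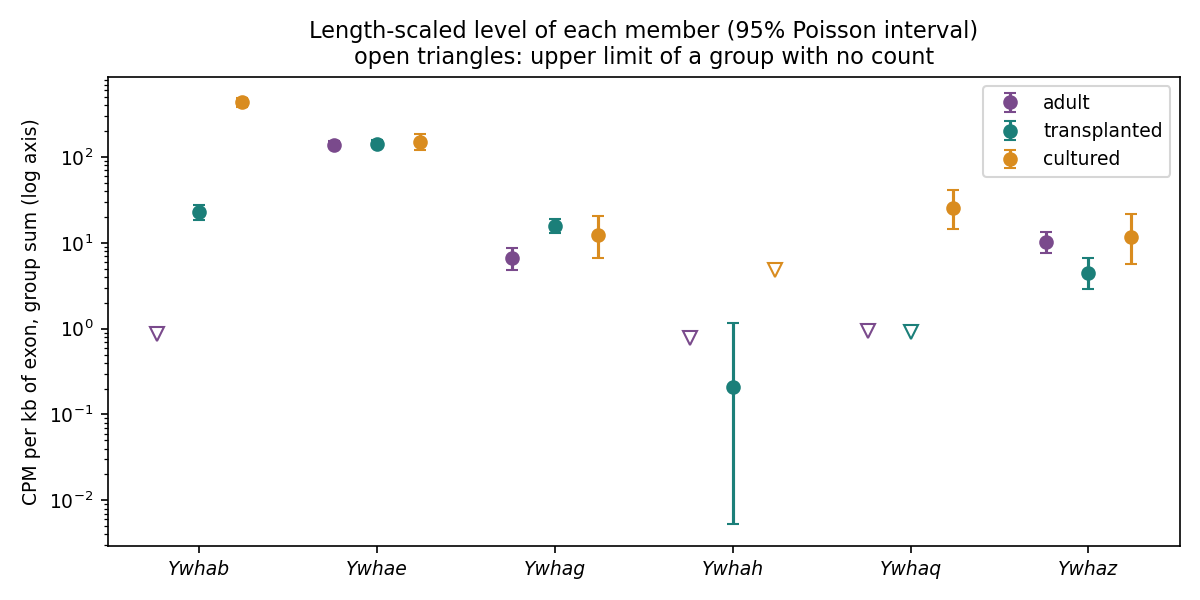
Level of each member per kb of annotated exon in the sum of 8 adult, 8 transplanted or 8 cultured cells, on a log axis, with 95% Poisson intervals; open triangles mark the upper limit where a group had no count. Ywhae lies near 140 to 151 CPM per kb in all 3 groups, but at 80.3 in adult cells without adult A and at 53.6 in cultured cells without cultured B. Ywhab has no count in adult cells, 22.9 CPM per kb in transplanted cells and 435 CPM per kb in cultured cells, or 126 without cultured D.

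**Figure D4:**
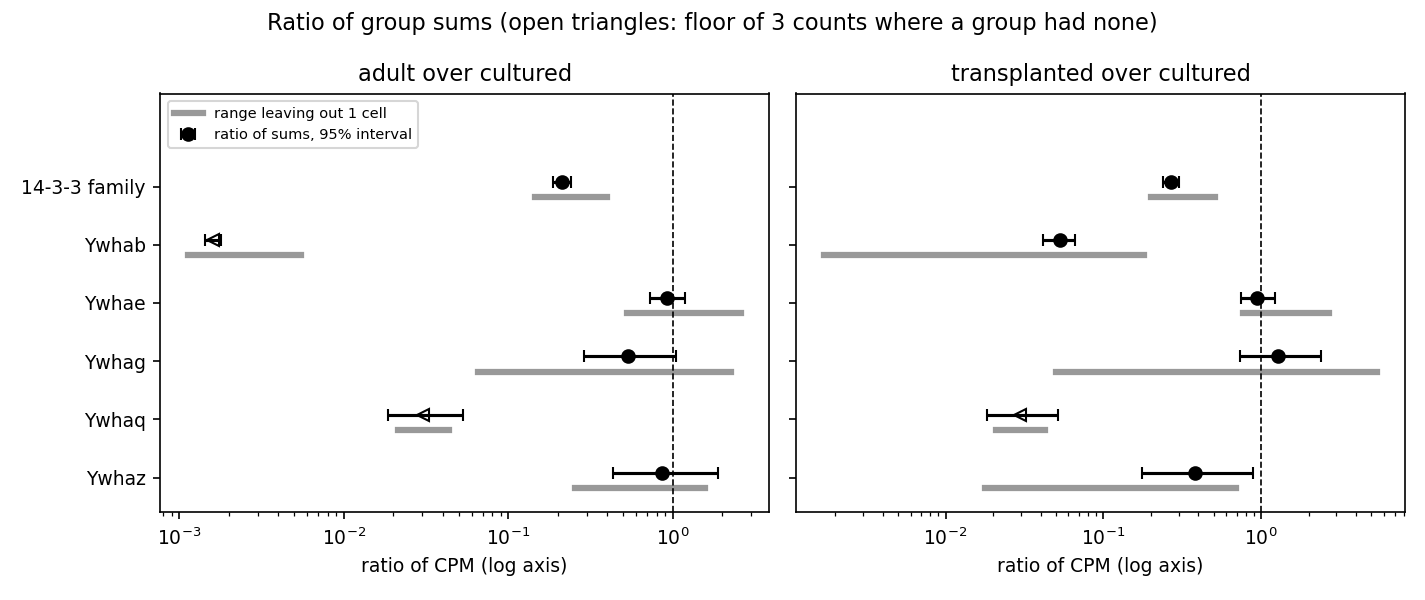
Ratio of group sums for the family and for 5 members, adult over cultured on the left and transplanted over cultured on the right, on log axes, with exact 95% intervals; open triangles use 3 counts for a group that had none and grey bars span the values with 1 cell left out. The bars of the family, Ywhab and Ywhaq stay left of 1 in both panels, whereas those of Ywhae and Ywhag lie on both sides of 1.

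Proteins that 14-3-3 binds were followed through a list of 45 known partners, of which 35 were listed. Of 22 measured, 5 were more than 2-fold higher and 16 more than 2-fold lower in adult than in cultured cells, with a median log2 ratio of -4.66 (pseudocount 1 CPM), against -3.85 over all measured genes, of which 23.0% were higher and 62.1% lower. Of 23, 3 were higher and 17 lower in transplanted than in cultured cells, against 22.5% and 64.0% of all measured genes. The partner median there was -5.63, the same as the -5.63 over all measured genes. It is the value of a gene with 10 cultured counts and none in transplanted cells. With pseudocounts of 0.1 and 10 CPM the median was -8.92 and -2.55, and in adult over cultured cells -5.45 and -2.48. Of 10, 5 were higher and 2 lower in adult than in transplanted cells, against 44.3% and 34.8% of all measured genes, with a median of 0.84 against 0.37.

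Pln, which encodes phospholamban, was the most abundant listed partner in adult and transplanted cells. It had counts in all 8 adult and all 8 transplanted cells and in 2 cultured cells, at 7916 CPM in adult, 5638 CPM in transplanted and 92.2 CPM in cultured cells. Gja1, which encodes the gap junction protein connexin 43, had 215 CPM in 6 adult cells, 166 CPM in 3 transplanted cells and no count in cultured cells, which makes it at least 14.8-fold higher in adult and at least 11.4-fold higher in transplanted cells. Transplanted D held 195 of its 216 transplanted counts, and without it the level there was 18.3 CPM. Braf, a Raf kinase, had 44.8 CPM in 2 adult cells, 14.6 CPM in 1 transplanted cell and 281 CPM in 4 cultured cells. Hdac5, a class IIa histone deacetylase, had 36.2 CPM in 1 adult cell, no count in transplanted cells and 48.5 CPM in 2 cultured cells. Ndel1, a dynein regulator bound by the epsilon form, had 218 CPM in 1 cultured cell and no count elsewhere, and Tsc2, a brake on mTOR signalling, had 0 counts in adult cells, 75.2 CPM in 1 transplanted cell and 43.7 CPM in 3 cultured cells.

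Of 19 listed kinases that make 14-3-3 binding sites, 5 (26.3%) had a count in adult, 3 (15.8%) in transplanted and 16 (84.2%) in cultured cells. Of all listed genes, 38.1%, 32.6% and 76.2% had one. Of 10 measured, 3 were more than 2-fold higher and 6 more than 2-fold lower in adult than in cultured cells, and of 8, 1 was higher and 6 were lower in transplanted than in cultured cells. The shares of all measured genes were 23.0% higher and 62.1% lower in adult, and 22.5% higher and 64.0% lower in transplanted cells, so these counts are near the background. Prkaca, the catalytic subunit of protein kinase A, had 54.3 CPM in 5 adult cells, 32.2 CPM in 2 transplanted cells and no count in cultured cells. Its levels were 19.1 CPM without adult A and 1.65 CPM without transplanted C. Mapkapk2, a kinase of the p38 stress pathway, had 84.9 CPM in 2 adult cells, of which adult G held 107 of 108 counts, and no count in the other groups. Akt2 had 1.57 CPM in 1 adult, 26.9 CPM in 1 transplanted and 14.6 CPM in 2 cultured cells, and Chek1, a DNA damage kinase, had 92.2 CPM in 1 cultured cell.

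Catalytic subunits of the phosphatases that remove such sites were followed in the same way. Ppp1ca had 81.8 CPM in 2 adult cells, 420 CPM in 4 transplanted cells and no count in cultured cells. Its levels were 30.2 CPM without adult C and 280 CPM without transplanted A. Ppp1cb was highest in cultured cells, with 296 CPM in 4 adult cells, 143 CPM in 2 transplanted cells and 1504 CPM in 6 cultured cells. Its levels were 138 CPM without adult A, 59.4 CPM without transplanted B and 1116 CPM without cultured D. Ppp2ca had 89.7 CPM in 1 adult cell, 173 CPM in 2 transplanted cells and 1038 CPM in 5 cultured cells. Its levels were 81.4 CPM without transplanted B and 544 CPM without cultured D. Ppp2cb had 179 CPM in 2 cultured cells and no count elsewhere, and its level was 21.3 CPM without cultured F. Of the 5 measured phosphatase genes, 1 was more than 2-fold higher and 4 more than 2-fold lower in both comparisons with cultured cells. The shares of all measured genes were 23.0% and 62.1% for adult and 22.5% and 64.0% for transplanted cells. With 5 genes, these counts are near the background.

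Because Ywhaz serves as a reference gene, it was set beside 14 other listed genes in such use. Of 13 measured, Ywhaz included, 4 were more than 2-fold higher and 7 more than 2-fold lower in adult than in cultured cells, against 23.0% and 62.1% of genes. In transplanted cells 2 were higher and 9 lower, against 22.5% and 64.0% of genes. Actb, beta actin, had 36.2 CPM in 5 adult cells, 33.8 CPM in 3 transplanted cells and 1382 CPM in 6 cultured cells. Transplanted D held 41 of its 44 transplanted counts, and without it the level there was 2.62 CPM. Rplp0, a ribosomal protein, had 700 CPM in adult, 564 CPM in transplanted and 306 CPM in cultured cells, and it was found in 8, 8 and 5 cells. Sdha, a subunit of complex II, had 1105 CPM in 8 adult cells, 49.9 CPM in 3 transplanted cells and 189 CPM in 4 cultured cells. Its levels were 628 CPM without adult G, 15.3 CPM without transplanted B and 104 CPM without cultured G. Hprt had no count in adult cells, 408 CPM in 2 transplanted cells and 43.7 CPM in 2 cultured cells. Transplanted H held 529 of its 532 transplanted counts, and without it the level was 3.13 CPM. Tfrc, the transferrin receptor, had 1106 CPM in 5 cultured cells and no count elsewhere.

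By rank correlation of log2(CPM + 1) over the 24 cells, the 391 other genes with counts in at least 12 cells were compared with Ywhae, the member with the most counts. The most alike were Myom1 with a Spearman rho of 0.51, Tomm7 with 0.50, Ndufs4 with 0.46, Hspa5 with 0.44 and Gbas with 0.43. Within the 8 cells of a group, rho of Myom1 was 0.44 in adult, 0.85 in transplanted and 0.77 in cultured cells. For the family sum the most alike were Ppp1cb with 0.65, Ube2d3 with 0.58, Qk with 0.58, Malat1 with 0.55 and Npm1 with 0.50. Within groups these were mixed, in the order adult, transplanted and cultured cells. Ppp1cb had 0.25, 0.74 and 0.65, Ube2d3 0.19, 0.74 and -0.24, and Qk 0.036, 0.52 and 0.63. Malat1 had -0.26, 0.66 and 0.86, and Npm1 -0.14, 0.33 and -0.43. Cells of a group share depth and library make-up, many values are 0, and with 8 cells a group these values describe the cells only.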

How the data were processed

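Single cells were sorted or picked, and their RNA was copied with SMARTscribe reverse transcriptase, amplified by PCR and cut with Tn5, per the labels' protocols. No molecular identifiers are stated. The deposited table holds raw whole-number counts. The submitters' processing notes list TopHat2 2.1.0, HTSeq, DESeq2 and mm10 without roles. What annotation, strand setting or gene filter was used is not given in the sources used here. Sfn was not analysed here.

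Counts were summed over the 8 cells of a group and divided by the group's total. Intervals are exact at 95% (Poisson for levels, conditional binomial for ratios, Clopper-Pearson for shares). Only the ratio intervals were tested, on simulated counts with Poisson error alone. That test cannot show how well they cover spread between cells. Counts of any 2 cells in a group differed beyond sampling noise (chi-square per degree of freedom at least 13.6). Exon lengths and sequences came from GENCODE M21, and coding sequences were aligned with MAFFT 7.526. Python 3.11.15 and SciPy 1.17.1 were used. Alternatives were TMM factors of edgeR 4.0.16, size factors of DESeq2 1.42.0, equal cell weights, other totals and leaving out each cell. No count model was fitted, since each group is 1 sample.

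The members, gene lists and rules were chosen with earlier results of these data known. Named genes are all members and, of each list, the 3 with the highest CPM and the highest and lowest log2 ratio per comparison. The 5 genes most like Ywhae or the family sum were also named. Some genes that this rule names are not reported here. Genes of other choice are said to be so where they are named.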

Additional observations from a re-analysis of the deposited data

Results flagged for a closer look

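Of 14-3-3 levels, 8 sets of 8 cells were examined for a cell far from the others, namely those with a count in at least 4 cells: Ywhae and the family sum in each group, and Ywhab and Ywhaz in cultured cells. In 3 of them the highest cell stood far above the next, by Dixon's rule on the gap as a share of the range. That rule flags about 1 in 20 groups by chance only where values are normally distributed. The levels here are skewed and many cells had no count, so how often chance gives such a gap is not known. Sets with fewer cells were not examined, although 1 cell held most counts in several of them (Ywhab in transplanted G, Ywhag in adult C, transplanted B and cultured F, Ywhaz in adult C and transplanted A). Ywhab in cultured D, at 8141 CPM, lay above 1242 CPM in the next cell. The family sum in cultured D, at 8212 CPM, lay above 1716 CPM in the next cell and is the same signal, since Ywhab made up 99.1% of it. Ywhaz in cultured F, at 271 CPM, lay above 101 CPM in the next cell, but these are 5 and 2 counts. In cultured D, Rpph1 took 5.48% of counts, the highest share of any cell, and the part of library make-up in its Ywhab level was not tested.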

How the results depend on the processing

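No paired analysis was possible because the labels' letters only name cells and no test between groups was made. Relative to cultured cells, the family ratio stayed below 1 under all alternatives run. For transplanted over cultured cells (0.269) it was 0.508 with TMM factors, 0.314 with DESeq2 size factors and 0.357 with equal cell weights, and 0.200 to 0.506 leaving out 1 cell. For adult over cultured cells (0.213) it was 0.404 with TMM factors and 0.147 to 0.402 leaving out 1 cell. For adult over transplanted cells (0.793) it was 0.593 with equal cell weights and 0.546 to 1.06 leaving out 1 cell, turning above 1 without transplanted B (1.02) or transplanted G (1.06). The ratios of adult over transplanted cells also turned for Ywhag (0.417, with 0.0511 to 10.7 leaving out 1 cell and the highest without transplanted B) and Ywhaz (2.26, with 0.674 to 48.4 leaving out 1 cell and the lowest without adult C). The number of members more than 2-fold higher was 0 to 1 leaving out 1 cell in both comparisons with cultured cells, and 1 with TMM factors in transplanted over cultured cells. The number more than 2-fold lower in adult than in cultured cells was 2 to 4 leaving out 1 cell. Between adult and transplanted cells, the number higher was 1 (0 to 2 leaving out 1 cell, 0 at a 4-fold limit) and the number lower was 2 (1 to 2 leaving out 1 cell, 1 at a 4-fold limit). The causes were not tested. Cultured depth limits a count of 0 there to 14.6 CPM.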
